A study of Homo sapiens with 9 samples.

Results

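SARNP and 9 other factors that carry mRNA out of the nucleus, ALYREF, DDX39A, DDX39B, THOC1, THOC2, THOC5, NXF1, NXT1 and POLDIP3, were followed by RNA-seq in HEK293T lines that express WT, G245S or R273H p53. The 10 genes were chosen by symbol, as subunits and partners of the TREX (transcription and export) complex, from a table of 78986 genes, by a rule that uses no measured value. All 10 were expressed in every library and passed the filter on low counts in each comparison. None of the 10 differed between lines at an adjusted p under 0.05, and the coefficient of variation of their mRNA over the fitted libraries lay between 3.13% and 10.6%. NXF1, the main mRNA export receptor, was the member with the largest difference, with means of 36.9 ± 3.18 CPM (SD, n = 2) for WT, 44.4 ± 3.83 CPM (SD, n = 3) for G245S and 43.4 ± 3.40 CPM (SD, n = 3) for R273H, and this difference did not pass the adjusted threshold.

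Spliced mRNA leaves the nucleus only after it has been packaged with export proteins. The THO subcomplex (THOC1, THOC2, THOC5 and others) joins the RNA helicase DDX39B and the adaptor ALYREF to form TREX, which is loaded on the transcript during transcription and splicing. SARNP binds the helicase and RNA together with ALYREF, POLDIP3 is a further adaptor, and DDX39A is a close paralog of DDX39B. The adaptors hand the mRNA to the heterodimer of NXF1 and NXT1, which passes through the nuclear pore.

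Stable HEK293T lines, derived from human embryonic kidney cells that carry the SV40 large T antigen, were made with lentivirus encoding WT, G245S or R273H p53 and kept under puromycin selection. All 3 groups therefore overexpress a form of p53 on top of what the parental cells hold, and no line without the transgene was analysed here. WT p53 cells were the control. G245S and R273H are single amino acid changes in the DNA-binding domain of p53, and each form was represented by 1 stable line sampled as 3 biological replicates, so that a property of the line cannot be told apart from the form of p53 it carries. The sample labels name the cells HEK 293 and epithelial, while the growth description and the study name HEK293T.

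The libraries held between 1486315 and 9667306 counts. WT replicate 3 was the shallowest and was left out of the fits on its depth, which leaves 2 WT, 3 G245S and 3 R273H libraries with at least 7325514 counts each. It is the library that stands apart, and its values are given separately. Levels are CPM, counts relative to the TMM-adjusted library size, and are compared between lines within a gene and never between genes. Of the markers of the line, VIM was at 463 to 582 CPM, CDH2 at 70.1 to 84.0 CPM, KRT18 at 58.7 to 161 CPM and KRT8 at 9.65 to 54.7 CPM over the 9 libraries. PTPRC of leukocytes stayed under 1 CPM. ALB of hepatocytes and PECAM1 of endothelium had 6 counts and 1 count in all, with highest values of 2.81 and 0.701 CPM. COL1A1, a marker of fibroblasts, was at 12.7 to 37.0 CPM, so it was not near 0. In bulk RNA a smaller number of cells with a transcript and less transcript per cell cannot be told apart.

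**Figure D1:**
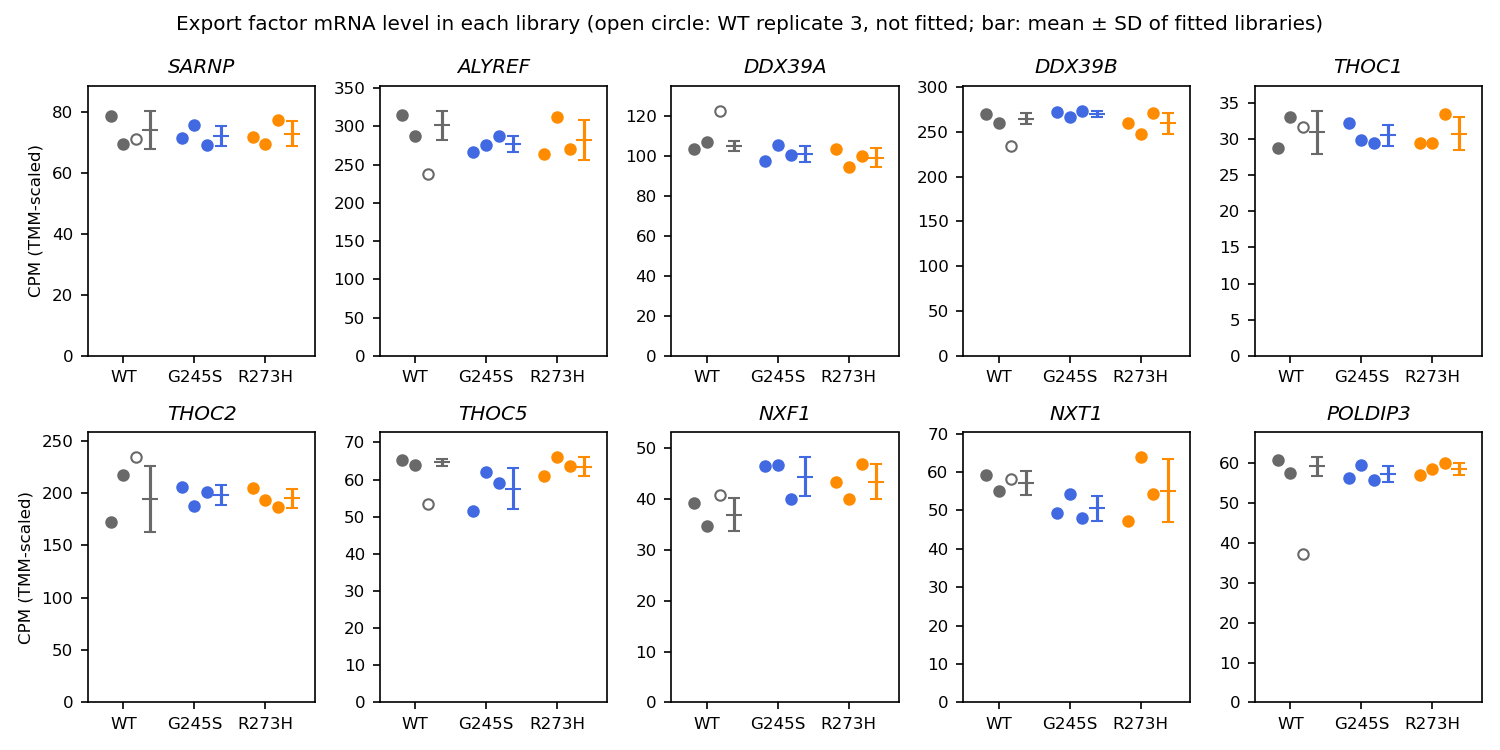
Level of each export factor (y axis, TMM-scaled CPM from 0) in every library of the WT, G245S and R273H lines (x axis); filled circles are fitted libraries, the open circle is WT replicate 3, and bars are the mean ± SD of the fitted libraries. The lines overlap for most genes, the NXF1 circles of both mutants lie above both fitted WT circles, and the open POLDIP3 circle, at 37.2 CPM, lies below all the others.

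SARNP, a small SAP-domain protein that binds DDX39B and RNA, lies on chromosome 12 (ENSG00000205323; GRCh38, 55752463 to 55817724, minus strand). Its level was 78.5 and 69.5 CPM in the fitted WT libraries. It was 71.4, 75.6 and 69.0 CPM in the G245S libraries. It was 71.7, 69.4 and 77.2 CPM in the R273H libraries. WT replicate 1 held the highest value and G245S replicate 3 the lowest, and the 3 lines overlapped fully, with means of 74.0 ± 6.35 CPM (SD, n = 2), 72.0 ± 3.34 CPM (SD, n = 3) and 72.8 ± 4.05 CPM (SD, n = 3). The log2 fold change against WT was −0.034 in G245S (95% interval −0.23 to 0.16, adjusted p = 0.975, quasi-likelihood test of edgeR, Benjamini-Hochberg adjustment). In R273H it was −0.023 (95% interval −0.22 to 0.17, edgeR's adjusted p = 0.997). The interval of the direct difference between the mutants was −0.15 to 0.17. In folds, the intervals run from 0.852 to 1.12 in G245S and from 0.859 to 1.13 in R273H, so a change of SARNP mRNA larger than these was not seen in either line. The lone value in the shallow WT replicate 3, 70.8 CPM from 101 counts, lay inside the range of the other 8 libraries.

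SARNP shares part of its exonic bases with another gene. The annotation places ENSG00000257390, a protein-coding gene with no symbol in the table, over 893 of the 3365 exonic bases of SARNP. The deposited counts of the pair were nearly equal. SARNP had 682.5, 540.5 and 100.5 counts in the WT libraries, 699.5, 586.5 and 560.75 in G245S, and 622.33, 508.0 and 650.0 in R273H, and the overlapping gene held between 92.2% and 95.2% as many in every library. Fractional assignment is stated for reads that map to several places, and how a read over exons of both genes was counted is not given in the sources used here, so the level cannot be assigned to SARNP alone. Summed, the pair stood at 152 and 134 CPM in the fitted WT libraries, 138, 145 and 133 CPM in G245S, and 138, 134 and 151 CPM in R273H. The log2 fold change of the sum was −0.034 in G245S (95% interval −0.23 to 0.16). In R273H it was −0.018 (95% interval −0.22 to 0.18), and both were close to the values of SARNP alone. The overlapping gene held a near-constant share of the SARNP count, so this closeness is no separate check.

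DDX39B and POLDIP3 share exons in the same way. DDX39B is overlapped by the readthrough gene ATP6V1G2-DDX39B over 29.7% of its exonic bases, and that gene held between 96.6% and 99.2% as many counts as DDX39B. POLDIP3 is overlapped by ENSG00000289517 over 91.1% of its exonic bases, and that gene held between 28.3% and 42.8% as many. With the counts of the partner added, the log2 fold changes of DDX39B were 0.035 in G245S and −0.033 in R273H. Those of POLDIP3 were −0.050 and 0.00093, and neither gene was called. For DDX39B the partner share was near constant too, so its sum is no separate check. THOC5 shares 158 exonic bases, 2.01% of its own, with NIPSNAP1. The other 6 members share no exonic base with a gene on their strand, so exon overlap concerns the levels of SARNP, DDX39B and POLDIP3 above all. Of these 6, ALYREF and NXT1 also had counts that were not whole, such as 2741.5 for ALYREF in WT replicate 1 and 427.5 for NXT1 in WT replicate 2. Their levels may thus include reads that map to several places, which was not tested.

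**Figure D2:**
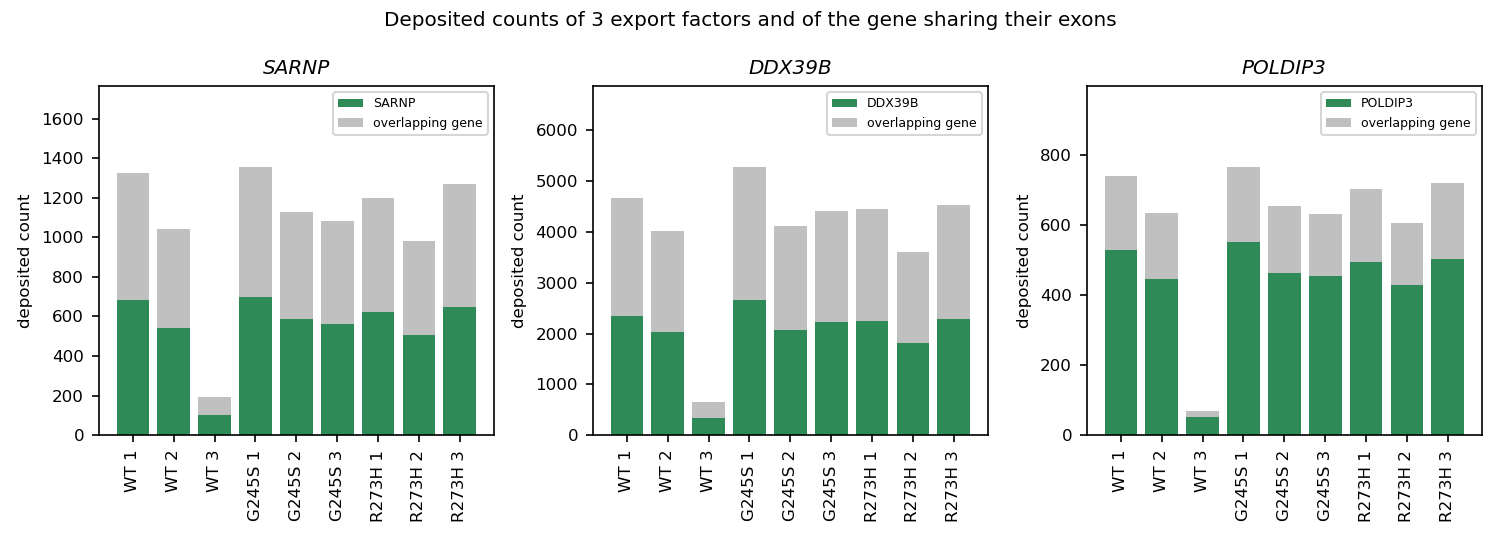
Deposited counts (y axis, from 0) of SARNP, DDX39B and POLDIP3 in green and of the gene that shares their exons in grey, stacked, for each of the 9 libraries (x axis, line and replicate). The grey part is nearly as tall as the green for SARNP and DDX39B, with 92.2% as many counts or more, and shorter for POLDIP3, and WT replicate 3, the shallowest library, is low for all 3 genes.

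ALYREF, the adaptor that links the spliced mRNA to NXF1 (ENSG00000183684; chromosome 17, 81887835 to 81891586, minus strand), was at 315 and 288 CPM in the fitted WT libraries. It was at 266, 276 and 288 CPM in G245S and at 264, 312 and 271 CPM in R273H. The WT values were both at the upper end of the range but did not stand clear of it, since R273H replicate 2 lay between them and G245S replicate 3 was level with the lower one. The log2 fold change was −0.12 in G245S (95% interval −0.31 to 0.082, edgeR's adjusted p = 0.867) and −0.094 in R273H (95% interval −0.31 to 0.12, edgeR's adjusted p = 0.979). WT replicate 3 held 238 CPM, below all 8 other libraries, with an exact Poisson interval of 213 to 264 CPM that covers counting error only.

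POLDIP3, an adaptor also known for bringing S6 kinase to newly spliced mRNA (ENSG00000100227; chromosome 22, 42583721 to 42614962, minus strand), was the steadiest of the members among the 8 fitted libraries. It was at 60.9 and 57.5 CPM in WT, 56.4, 59.6 and 55.9 CPM in G245S and 57.0, 58.5 and 60.0 CPM in R273H. Its highest library was 1.09 times its lowest, and its log2 fold changes were −0.042 in G245S and −0.017 in R273H. WT replicate 3 was the exception, at 37.2 CPM from 53 counts, with an exact Poisson interval of 27.8 to 48.6 CPM. POLDIP3 was the 1 member whose interval there lay wholly outside the other 8 libraries. The share of all genes outside the range in that library was not counted. With all 3 WT libraries in the fit the log2 fold changes turned to 0.056 in G245S and 0.082 in R273H, neither called (edgeR's adjusted p = 0.975 and 0.976).

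The helicases that unwind and load TREX differed as little. DDX39B (ENSG00000198563; chromosome 6, 31530219 to 31542448, minus strand) averaged 270.3 ± 3.53 CPM (SD, n = 3) for G245S and 259 ± 11.5 CPM (SD, n = 3) for R273H, on either side of 265 ± 6.49 CPM (SD, n = 2) for WT. Its log2 fold changes were 0.036 in G245S (95% interval −0.15 to 0.23) and −0.028 in R273H (95% interval −0.22 to 0.16). DDX39A, its paralog (ENSG00000123136; chromosome 19, 14408798 to 14419383, minus strand), averaged 105 ± 2.53 CPM (SD, n = 2) for WT, 101 ± 4.05 CPM (SD, n = 3) for G245S and 99.2 ± 4.58 CPM (SD, n = 3) for R273H. The lowest library, R273H replicate 2 at 94.4 CPM, and the highest fitted library, WT replicate 2 at 107 CPM, differed by a ratio of 1.13. WT replicate 3 was higher still for DDX39A, at 123 CPM, and lower than the other 8 for DDX39B, at 234 CPM, but both Poisson intervals reached into the range of the other libraries.

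The core THO subunits were measured at 3 loci. THOC1 (ENSG00000079134; chromosome 18, 214520 to 268050, minus strand) was nearly identical between lines, at 30.9 ± 3.03 CPM (SD, n = 2) for WT, 30.5 ± 1.44 CPM (SD, n = 3) for G245S and 30.7 ± 2.32 CPM (SD, n = 3) for R273H. Its log2 fold changes, −0.0063 and −0.0019, were the smallest of the set against WT. THOC2, the large scaffold of the complex (ENSG00000125676; chromosome X, 123600561 to 123733056, minus strand), had the widest spread within WT, with 172 CPM in replicate 1 and 217 CPM in replicate 2. All 6 mutant libraries fell between these, at 206, 187 and 201 CPM in G245S and 205, 193 and 186 CPM in R273H. The sign of the THOC2 difference therefore depended on which WT library was used, with a log2 fold change in G245S of 0.036 with both, 0.21 without WT replicate 2 and −0.12 without WT replicate 1. In R273H these values were 0.0065, 0.18 and −0.15, and none was called.

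THOC5, the THO subunit that also contacts NXF1 (ENSG00000100296; chromosome 22, 29505879 to 29555216, minus strand), was at 65.2 and 64.0 CPM in the fitted WT libraries and at 51.6, 62.1 and 59.1 CPM in G245S. The R273H libraries were at 60.8, 66.0 and 63.7 CPM. G245S lay below both fitted WT libraries without overlap, but WT replicate 3, at 53.3 CPM, lay inside the G245S range. The log2 fold change was −0.16 in G245S (95% interval −0.37 to 0.043, edgeR's adjusted p = 0.799), −0.025 in R273H (edgeR's adjusted p = 0.997) and 0.14 between R273H and G245S (95% interval −0.041 to 0.32, edgeR's adjusted p = 0.994).

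NXF1 (ENSG00000162231; chromosome 11, 62792123 to 62806302, minus strand), the receptor that carries the mRNA through the pore, was at 39.2 and 34.7 CPM in the fitted WT libraries. It was at 46.5, 46.8 and 39.99 CPM in G245S. It was at 43.3, 40.02 and 46.8 CPM in R273H. Every mutant library was above both fitted WT libraries, by under 1 CPM for G245S replicate 3 and R273H replicate 2. The log2 fold change was 0.27 in G245S (SE 0.105, 95% interval 0.046 to 0.50, edgeR's unadjusted p = 0.0217 and adjusted p = 0.679). In R273H it was 0.23 (SE 0.103, 95% interval 0.015 to 0.45, edgeR's unadjusted p = 0.0378 and adjusted p = 0.789). Both comparisons use the same WT libraries, so their values are tied. The mutants differed from each other by −0.040 (95% interval −0.23 to 0.15).

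The NXF1 difference leaned on the choice of WT libraries. WT replicate 3 held 40.7 CPM from 58 counts (exact Poisson interval 30.9 to 52.6 CPM), above the lowest library of each mutant, so with it the lines overlap. With all 3 WT libraries the log2 fold change was 0.25 in G245S (unadjusted p = 0.0392, edgeR) and 0.21 in R273H (unadjusted p = 0.0680, edgeR). With WT replicates 1 and 3 it was 0.17 and 0.13, and with WT replicate 1 alone, 0.19 and 0.15, none at an unadjusted p under 0.05. With WT replicates 2 and 3 it was 0.29 (unadjusted p = 0.0454, edgeR) and 0.26 (unadjusted p = 0.0640, edgeR), and with WT replicate 2 alone, 0.37 (unadjusted p = 0.0176, edgeR) and 0.33 (unadjusted p = 0.0251, edgeR). DESeq2 gave unadjusted p = 0.0691 and 0.108. The sign stayed positive in all 19 fits of each comparison, the reported one included. These fits reuse the same libraries, so they are not separate evidence.

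NXT1, the small partner of NXF1 (ENSG00000132661; chromosome 20, 23350791 to 23354771, plus strand), was at 59.3 and 55.0 CPM in the fitted WT libraries, 49.3, 54.2 and 48.1 CPM in G245S, and 47.4, 63.9 and 54.3 CPM in R273H. G245S lay below WT without overlap, also when WT replicate 3 at 58.2 CPM is counted, while R273H held both the lowest and the highest library of the 8. The log2 fold change was −0.17 in G245S (SE 0.0927, 95% interval −0.37 to 0.028, edgeR's adjusted p = 0.786) and −0.054 in R273H (95% interval −0.29 to 0.19, edgeR's adjusted p = 0.997). In G245S the fitted values of both subunits of the receptor thus had opposite signs, 0.27 for NXF1 and −0.17 for NXT1, and neither passed the adjusted threshold.

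**Figure D3:**
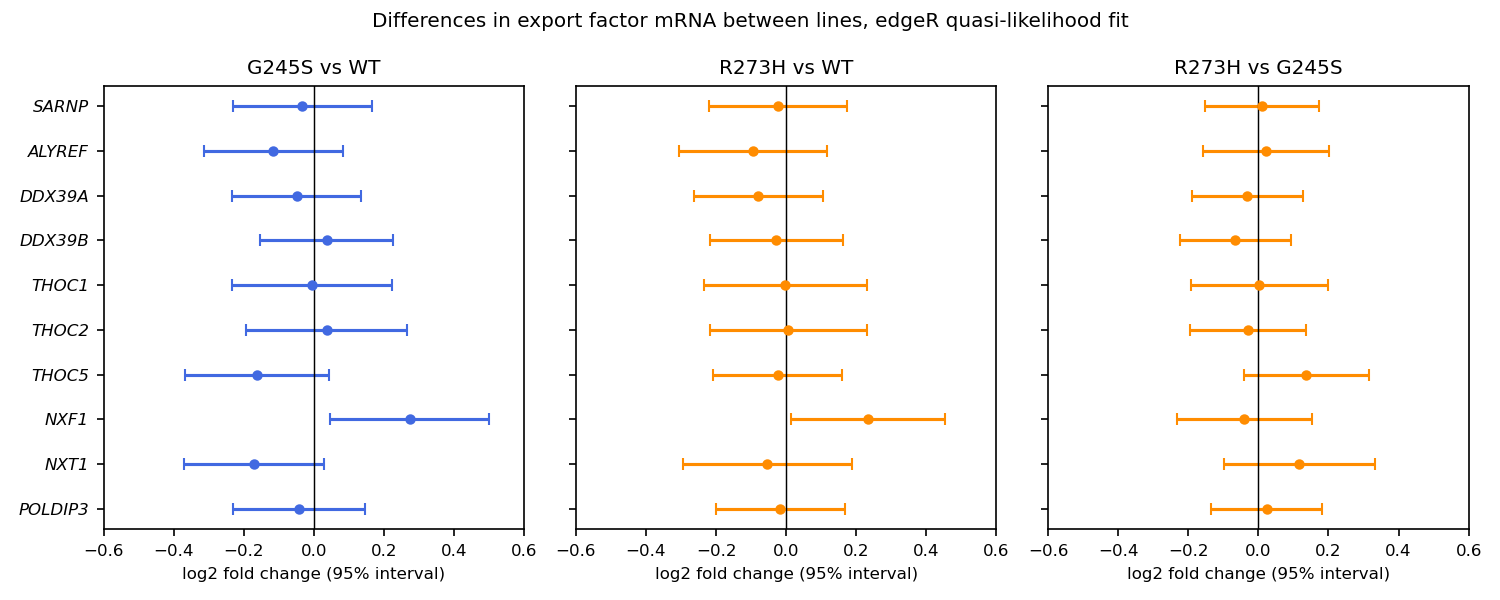
Log2 fold change of each export factor (x axis, with 0 marked) for G245S against WT, R273H against WT and R273H against G245S, from edgeR's quasi-likelihood fit; points are estimates and bars 95% intervals. The NXF1 intervals against WT, 0.046 to 0.50 and 0.015 to 0.45, are the ones that do not include 0, and they are not adjusted for the number of genes.

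The calls among the members were set beside those among all genes tested. In G245S, edgeR called 0 of 10 members, where 20 of 15827 genes, 0.126%, were called (3 higher, 17 lower). At an unadjusted p under 0.05 there was 1 member, NXF1, against 6.63% of all genes, and 3 of 10 members, NXF1, THOC5 and NXT1, did not overlap between G245S and WT against 22.0% of all genes. In R273H, edgeR again called 0 of 10, where 22 of 16042 genes, 0.137%, were called (4 higher, 18 lower). NXF1 was the 1 member at an unadjusted p under 0.05, against 6.1% of all genes, and the 1 member without overlap, against 20.6%. Between R273H and G245S, 0 of 10 members and 0 of 15632 genes, 0.0%, were called, 0 members were at an unadjusted p under 0.05 against 4.73%, and 0 members did not overlap against 8.99%. DESeq2 and edgeR's exact test also called 0 members in each comparison. With 10 members, a share near the background says nothing particular about them.

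The differences were small in size as well. Without regard to sign, the median log2 fold change of the members was 0.046 in G245S and 0.027 in R273H. Over all genes tested it was 0.112 and 0.104. With sign, the median of the members was −0.038 in G245S, with 3 positive and 7 negative values, and −0.024 in R273H, with 2 positive and 8 negative. Over all genes tested the medians with sign were 0.0036 and 0.0022. Between the mutants the median of the members was 0.0063, with 6 positive and 4 negative, and that of all genes −0.0045. The standard errors of the members, 0.0862 to 0.107 in G245S and 0.0861 to 0.112 in R273H, were below the medians over all genes, 0.138 and 0.136. All genes tested include genes with lower counts than the members, which vary more by counting error. The widest interval bounds of any member corresponded to folds of 0.774 and 1.41 in G245S, 0.809 and 1.37 in R273H, and 0.852 and 1.26 between the mutants.

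Across the 8 fitted libraries, without regard to line, the coefficient of variation was 3.13% for POLDIP3, 3.21% for DDX39B, 4.13% for DDX39A and 5.20% for SARNP. It was 6.08% for THOC1, 6.92% for ALYREF, 7.17% for THOC2 and 7.52% for THOC5, and highest for both subunits of the receptor, 10.5% for NXF1 and 10.6% for NXT1. The median of the members was 6.50%, that of the 11636 genes with a mean of at least 5 CPM was 8.89%, and counting error is part of each. The wider set reaches down to 5 CPM, where counting error is larger than at the member levels, which start at 28.7 CPM. Averaged over the members, each fitted library lay within −0.038 to 0.036 on the log2 scale of the mean over libraries, with no order by line, and WT replicate 3 lay at −0.066. The order of the line means was WT, R273H, G245S from high to low for SARNP, ALYREF, POLDIP3, THOC1, THOC5 and NXT1. It was WT, G245S, R273H for DDX39A, G245S, WT, R273H for DDX39B, and G245S, R273H, WT for THOC2 and NXF1. Neighbours in each order overlapped in their fitted libraries apart from R273H and WT for NXF1.

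The promoters of the members were searched for the p53 response element, because WT p53 binds this element to activate its targets and both mutants change the domain that binds it. A complete element is a pair of decamers that match the p53 consensus, which reads the same on both strands. RefSeq promoters (GRCh38.p14, 250 bases before to 50 after a start) were at hand for all 10 members, in 13 entries. The share over all promoters is counted per entry, and the members are counted per gene, over any of their entries. Of 35116 promoter entries searched, 2329 or 6.63% held at least 1 decamer. Among the members, 2 of 10 did, and their windows of 30 bases are printed with the decamer in capitals, at chr6:31542114-31542143 for DDX39B and chr22:29553715-29553744 for THOC5, both on the minus strand:
DDX39B: cattttccaaAGGCAAGCCTggagcgcacg
THOC5: tatggtgcgcGGGCAAGCTTtgctccgcct
The DDX39B decamer began at position −130 from the start of its entry and the THOC5 decamer at position 24. A complete element with up to 13 bases between the decamers was found in 10 of the 35116 promoters, 0.0285%, and in 0 of the members. The search allowed no mismatch and did not reach beyond these windows. At so low a share, a count of 0 does not show that the members lack p53 elements. A match describes letters in the window and not a bound site. The log2 fold changes of these genes in G245S and R273H were 0.036 and −0.028 for DDX39B and −0.16 and −0.025 for THOC5, and none was called.

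Other listed genes of nuclear export were likewise not called. Of 47 further genes in 6 groups, 42 were tested. LUZP4 had 1 count over the 9 libraries, and NXF2, NXF2B, NXF3 and NXF5 had 0. Of the 42, edgeR called 0 in any comparison, against 0.126% of all genes in G245S, 0.137% in R273H and 0.0% between the mutants. At such shares, 0 called says nothing particular about these genes. At edgeR's unadjusted p under 0.05 there were 0, against 6.63%, 6.1% and 4.73% of all genes in the same order. Their median log2 fold changes were −0.0017 in G245S and 0.0010 in R273H, with 21 positive and 21 negative in each. The outermost interval bounds were −0.44 and 0.37 in G245S and −0.40 and 0.38 in R273H.

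Among the other THO and TREX subunits, the median of the 7 tested was 0.040 in G245S and −0.0013 in R273H. By the mean of both mutants, the highest was THOC7, a THO subunit, at 0.077 and 0.012, and the lowest FYTTD1, an export adaptor, at −0.090 and −0.0013. In TREX-2, which ties transcribed genes to the pore, the medians of 6 genes were −0.046 and 0.00080, and by the mean of both mutants CETN3 was the lowest, at −0.18 and −0.14, and ENY2 the highest, at 0.083 and 0.11. Of the 12 nuclear pore genes that dock and remodel the mRNA, NUP88 had the lowest values, −0.18 in G245S (95% interval −0.37 to 0.0016, unadjusted p = 0.0518 and adjusted p = 0.754 from edgeR) and −0.13 in R273H. Its partner NUP214 was the highest by the mean of both mutants, at 0.063 and 0.044. NUP88 thus came closest to the unadjusted threshold of the genes named from these lists.

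The 10 cap-binding and exon junction genes had medians of 0.015 and −0.0016, with MAGOHB, a core component of the junction complex, lowest at −0.19 and −0.17. CASC3 was the highest of them by the mean of both mutants, at 0.072 and 0.011. The 4 tested genes grouped as other export receptors were XPO1, XPO5, XPOT and NXT2, and this group is not limited to mRNA export. All were positive in G245S, from 0.049 for XPO1, the receptor of proteins with a nuclear export signal, to 0.12 for NXT2, the paralog of NXT1. In R273H, XPO1 and NXT2 stood at −0.029 and 0.11. The shuttling SR proteins SRSF1, SRSF3 and SRSF7, which also recruit NXF1, had medians of −0.039 and −0.085, and SRSF7 was the lowest at −0.075 and −0.092.

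**Figure D4:**
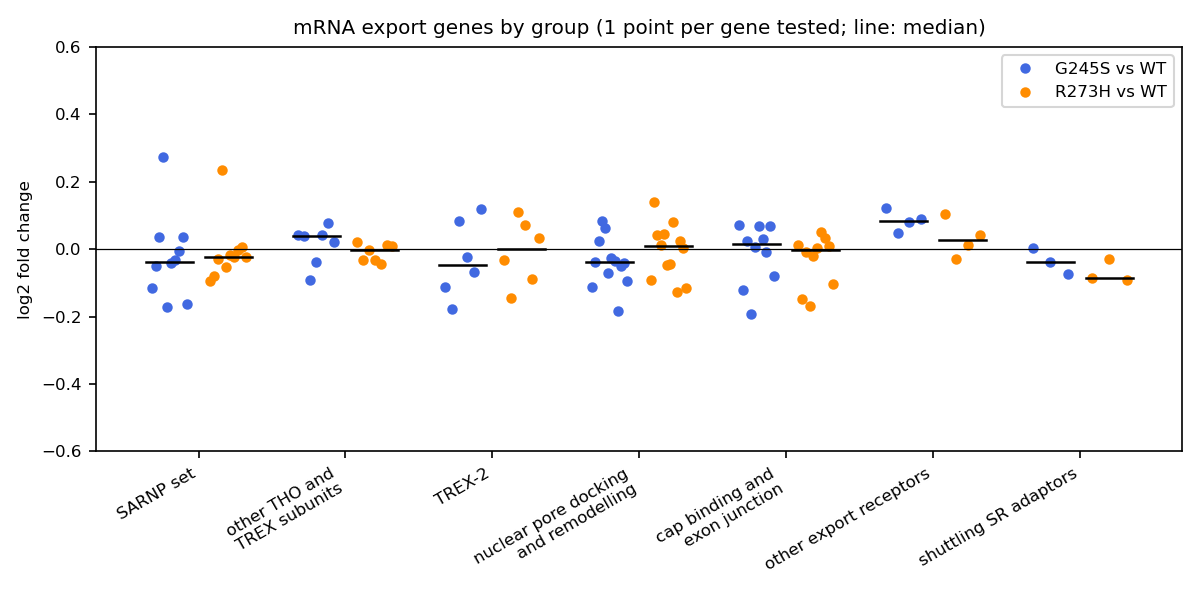
Log2 fold change against WT (y axis) of every tested gene in the set around SARNP and in 6 further groups of export genes (x axis), in G245S (blue) and R273H (orange); 1 point is 1 gene and lines are medians. The points of all groups lie between −0.19 and 0.27, and the NXF1 values, 0.27 and 0.23, are the highest of each comparison.

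Genes with a profile like that of SARNP were sought over the 8 fitted libraries by the root-mean-square difference of log2(CPM + 0.5) after centring each gene. The measure describes likeness over these libraries only. Of 11617 genes ranked, with a median of 0.133, the nearest was ENSG00000257390 at 0.0140, the gene that shares exonic bases with SARNP. It was followed by XRCC6 at 0.0163, which encodes the Ku70 subunit that binds DNA ends, TAF12, a subunit of the basal factor TFIID, at 0.0272, ATP5PB, a subunit of the mitochondrial ATP synthase, at 0.0278, and C17orf75 at 0.0280. Among the members, POLDIP3 was nearest at 0.0398, then DDX39B at 0.0639 and DDX39A at 0.0765, and THOC2 was farthest at 0.159. A flat gene is near any other flat gene by this measure, and none of the 5 genes named was called in any comparison.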

How the data were processed

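RNA-seq of 3 biological replicates per line (WT, G245S and R273H p53) was analysed from the deposited table of expected counts, without normalization. The authors filtered reads with FastP 0.24.0, aligned them with STAR 2.7.11, sorted them with SAMtools 1.22.1, collapsed molecular identifiers with UMICollapse and counted exons and 3′ UTRs strand-specifically with featureCounts (Subread 2.1.1), with multi-mapping reads assigned as fractions, on GRCh38. Another 9 columns, of CPM per sample, were not used.

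Counts were rounded. WT replicate 3 was left out for its depth, since its total fell short of 4096044 (0.5 times the median of the 8 others). The study leaves out 1 WT replicate, which it does not name, for poor sample quality and low reads. Each comparison used its own libraries, filterByExpr, TMM and quasi-likelihood tests (edgeR 4.0.16, R 4.3.3). Adjusted p-values are Benjamini-Hochberg values over all genes tested, with a threshold of 0.05. Intervals are 95% and are not adjusted. DESeq2 1.42.0 was an alternative. Plots used matplotlib 3.10.9 in Python 3.11.15. The fits were tested on simulated data. Counting intervals cover counting error only and take the rounded counts as reads, though some deposited counts are fractions.

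The members and the other gene lists were chosen with earlier results of these data known. The text names all 10 members, the highest and lowest gene of each other list by the mean of both mutants, and the 5 genes most like SARNP. Overlaps of exons were read from the deposited gene models, on the same strand. All 10 members share chromosome and start or end with the GENCODE v44 annotation of GRCh38. A planned check is not reported here.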

Additional observations from a re-analysis of the deposited data

How the results depend on the processing

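In all alternatives run, 18 for each mutant against WT and 16 between the mutants, 0 of the 10 members passed an adjusted p of 0.05, and the lowest adjusted p of a member was 0.503. Member log2 fold changes stayed between −0.23 and 0.37. Of 520 member values under alternatives, 66 had another sign than the reported value, as had 105 of 881 values of the other named genes, none of them called. For G245S against WT, the 20 genes called became 10 with all 3 WT libraries, 3 with WT replicates 1 and 3, 145 with no filter on low counts and 77 with edgeR's exact test, and 11 to 30 when leaving out 1 library at a time. The lowest of these, 11, came without G245S replicate 3, and 13 were called without WT replicate 2. For R273H, the 22 became 13 with WT replicates 2 and 3, 4 with WT replicates 1 and 3, 89 with no filter and 61 with the exact test, and 16 to 29 when leaving out 1 library. Between the mutants, the 0 became 1 with DESeq2, 122 with no filter, 4 with the exact test, and 0 to 1 when leaving out 1 library, the 1 being without R273H replicate 3. The median of the members in G245S was −0.0091 with WT replicates 1 and 3 and −0.067 to −0.017 when leaving out 1 library. In R273H it was 0.061 with WT replicates 2 and 3, 0.020 with WT replicates 1 and 3, and −0.057 to −0.0046 when leaving out 1 library. The cause of these moves was not tested. Without 1 of the 2 WT libraries, the lone WT library is assumed to vary like the mutants. The fit that adds the counts of overlapping genes was chosen after seeing the data.

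The labels do not say that replicate numbers pair the libraries, so the numbers were not taken as pairs. The deviations of same-numbered libraries correlated between −0.271 and 0.376 over 11636 genes. The deviations of the 2 fitted WT libraries mirror each other, at −0.271 and 0.271 with R273H replicate 1, so the WT values say little on pairing. Between the mutants, replicates 1 and 2 of G245S correlated best with the same number in R273H (0.263 and 0.376), and G245S replicate 3 did not (0.0153, against 0.0715 with R273H replicate 1). With the replicate block, 75 genes were called in G245S, 42 in R273H and 55 between the mutants, none of them a member, and the median of the members in R273H was −0.056. Against WT, replicate 3 of each mutant had no WT library in its block. The differences against WT with the block thus rest on replicates 1 and 2. The NXF1 log2 fold change with the block was 0.34 in G245S and 0.18 in R273H.

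Against the 2 WT libraries, the standard errors of the members reached 0.107 in G245S and 0.112 in R273H on the log2 scale, and in WT replicate 3 the members had 45 to 339 counts each.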
